A study of Mus musculus with 4 samples.

Results

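The transcripts of 10 target genes of p53 (Mdm2, Ccng1, Bax, Bbc3, Pmaip1, Zmat3, Sesn1, Trp53inp1, Phlda3 and Gdf15) were followed in mouse hair follicle cells cultured to low and high passage, namely dermal papilla cells (DPCs) and cells of the dermal sheath (DSCs). They were chosen by gene name, and all 10 were found among the 51826 genes of the count table. DPCs are the mesenchymal cells in the bulb of the hair follicle and DSCs are the mesenchymal cells of the sheath around it. Both were grown in serum-containing medium from whisker follicles of EGFP-transgenic C57BL/6J mice aged 5 to 6 weeks, whose genotype the labels give as WT, with no treatment other than culture. The 4 groups were DPCs at passage 3 (DPCs_low), DPCs at passage 9 (DPCs_high), DSCs at passage 3 (DSCs_low) and DSCs at passage 9 (DSCs_high). Each group was 1 RNA sequencing library, so no difference between groups had a replicate check. The number of animals behind a library is not given in the sources used here.

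p53 is a transcription factor that is stabilized by DNA damage and other stresses and then binds short elements in the DNA near its target genes. Its targets include Mdm2, whose product marks p53 for degradation and so closes a feedback loop, genes that slow the cell cycle, genes of antioxidant defence and DNA repair, and genes of the mitochondrial death pathway. In cultured fibroblasts p53 is known for its part in the arrest of growth after many divisions, and the amount of p53 protein is set mostly after translation, so that its mRNA is a poor measure of its activity.

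The 250 bases before the start site were read for 7 of the 10 genes from RefSeq promoter windows (build GRCm38.p6) and searched for the p53 consensus element of 10 letters, the unit that p53 binds as a pair. The element reads the same on both strands. It was present in 4 of the 11 windows of these genes (36.4%), and in 2341 of 32851 windows of the same length over all genes (7.13%). No window of the 7 genes held a pair of elements separated by at most 13 bases, which 0.0639% of all windows did. Sequence outside these windows was not searched, so a pair elsewhere in or near a gene would have been missed. A match of letters is not a measured binding site. Pmaip1, Zmat3 and Trp53inp1 were not in the table. The 4 windows with an element, and that of Gdf15 as the gene whose level varied most, are printed 5′ to 3′ on the strand of the gene with the element in capitals. They are Mdm2 (chr10:117710759-117711008, minus strand, element at -186 from the start site), Ccng1 (chr11:40755287-40755536, minus strand, -185), Bax (chr7:45466899-45467148, minus strand, -201), the second of 2 start sites of Sesn1 (chr10:41887189-41887438, plus strand, -173) and Gdf15 (chr8:70632457-70632706, minus strand, no element).
Mdm2: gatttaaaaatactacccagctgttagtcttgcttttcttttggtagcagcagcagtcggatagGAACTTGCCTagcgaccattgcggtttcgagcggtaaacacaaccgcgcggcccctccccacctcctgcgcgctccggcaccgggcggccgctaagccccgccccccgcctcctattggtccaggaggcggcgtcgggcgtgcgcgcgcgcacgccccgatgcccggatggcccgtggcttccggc
Ccng1: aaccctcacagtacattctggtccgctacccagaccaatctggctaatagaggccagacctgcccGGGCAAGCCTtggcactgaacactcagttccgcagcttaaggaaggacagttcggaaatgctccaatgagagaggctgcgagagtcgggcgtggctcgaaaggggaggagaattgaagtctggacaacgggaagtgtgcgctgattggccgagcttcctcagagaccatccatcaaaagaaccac
Bax: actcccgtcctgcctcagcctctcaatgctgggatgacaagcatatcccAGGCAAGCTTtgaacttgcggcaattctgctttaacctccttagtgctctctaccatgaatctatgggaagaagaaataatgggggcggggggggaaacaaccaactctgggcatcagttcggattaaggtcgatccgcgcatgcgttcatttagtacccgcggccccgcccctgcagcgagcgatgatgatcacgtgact
Sesn1: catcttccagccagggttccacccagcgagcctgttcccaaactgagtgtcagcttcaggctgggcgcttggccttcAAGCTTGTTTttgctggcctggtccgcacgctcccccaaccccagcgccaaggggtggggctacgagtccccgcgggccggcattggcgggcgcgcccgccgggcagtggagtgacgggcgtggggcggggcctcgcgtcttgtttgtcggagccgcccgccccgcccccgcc
Gdf15: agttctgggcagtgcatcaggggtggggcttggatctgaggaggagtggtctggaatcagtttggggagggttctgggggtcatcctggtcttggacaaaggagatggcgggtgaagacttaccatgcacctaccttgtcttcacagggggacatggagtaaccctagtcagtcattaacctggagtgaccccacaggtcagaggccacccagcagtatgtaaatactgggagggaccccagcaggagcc

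The total count was between 34981284 and 47604059 per library, and the 10 most abundant genes held 8.27% to 11% of it. All libraries carried mesenchymal transcripts, with a summed level of 8 fibroblast markers between 7373 and 27060 CPM (counts scaled to a common library size). Of the defining dermal papilla markers, Sox2 had 1677 and 1491 counts in DPCs against 269 and 178 in DSCs, while Alpl (6 to 23 counts), Corin (0 to 10), Lepr (0 to 18) and Prom1 (0 to 7) were near 0 in every library and Lef1 fell from 508 to 2 counts with passage in DPCs. The keratinocyte markers Krt5, Krt14, Krt15, Krt1 and Cdh1, the melanocyte markers Mlana, Tyr, Tyrp1 and Dct, and Cd3e, Myod1 and Ckm were at 0 counts in all 4 libraries. Ncam1, which the study stained as a marker of both cell types, was lower in DPCs (3642 and 1673 counts) than in DSCs (11755 and 15584). Vcan had 4134 and 3447 counts in DPCs against 5272 and 2913 in DSCs. At passage 3 and 9 the 9 papilla markers, with Ncam1, summed to 273.5 and 190.5 CPM in DPCs and 461.2 and 413.6 CPM in DSCs. The 5 dermal sheath markers summed to 9431 and 3492 CPM in DPCs and to 7477 and 6514 CPM in DSCs. At passage 3 all 5 of them were higher in DPCs than in DSCs (median 0.78 on the log2 scale), and at passage 9 the 4 other than Itga8 were lower (median of the 5 -1.25). Ncam1 made up most of the papilla sum in DSCs, at 310 and 342 CPM at passage 3 and 9. Of the 6 papilla markers tested, 3 were higher in DPCs and 3 lower at passage 3. At passage 9, 4 were higher and 2 lower. Sox2 and Rspo3 (0.26 and 1.31) were higher at both passages, and Lef1 at passage 3 (2.35) but not at passage 9 (-3.56). The sheath markers at passage 3 thus went against the labels, as did the papilla sum with Ncam1 in it. Sox2 and Rspo3 followed the labels. Other markers moved with passage. In DPCs the fibroblast markers went from 18570 to 7373 CPM with Col3a1 from 45727 to 5565 counts, and among the sheath markers the log2 changes were -4.05 for Myh11 and 2.38 for Itga8. In DSCs Itga8 (3.53) and Dcn (4.50) were higher at passage 9, and Lum went from 0 to 109 counts. The summed level of 7 immune markers went from 113.5 to 63.7 CPM in DPCs and from 164 to 92.3 CPM in DSCs. Among them Ptprc went from 116 to 18 counts in DSCs and Adgre1 was at -2.02 in DPCs. The 5 skeletal muscle markers went from 40.6 to 0.362 CPM in DPCs, all of it Acta1 (-6.62), with the other 4 at 0 counts. In DSCs they went from 48.55 to 24.05 CPM. Endothelial markers summed to at most 5.49 CPM and Schwann markers to at most 16.2 CPM, and Cdh5, Sox10 and Cdh19 went to 0 counts at passage 9 in both cell types, as did Tek in DPCs, while S100b was at -2.13 in DPCs. Of 6 melanocyte markers 4 were at 0 throughout, and the sum was 11.2 to 28.3 CPM. In DSCs the 8 keratinocyte markers went from 3.61 to 51.9 CPM, of which Dsp supplied 2307 counts at passage 9. The part of these markers in the results for the p53 targets was not tested.

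The 10 genes differed widely in abundance. In FPKM (fragments scaled by transcript length and library size, the scale on which genes can be compared), Ccng1, a cyclin that regulates the MDM2 and p53 circuit, was the highest in all 4 libraries with 121 to 243 FPKM, and Gdf15, which encodes a secreted stress cytokine, was the lowest with 0.555 to 3.30 FPKM. Mdm2 (63.4 to 113 FPKM), Bax (63.4 to 104 FPKM) and Phlda3 (58.9 to 83.1 FPKM) lay between Ccng1 and the remaining genes. Sesn1 was the sixth of the 10 in high-passage DPCs, at 14.7 FPKM, and the ninth elsewhere, at 3.99 FPKM in DPCs of passage 3 and at 3.90 and 6.92 FPKM in DSCs of passage 3 and 9. On the CPM scale, Zmat3 varied least among the 4 libraries, with a ratio of highest to lowest of 1.17, while Sesn1 varied 4.03-fold and Gdf15 5.54-fold.

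**Figure D1:**
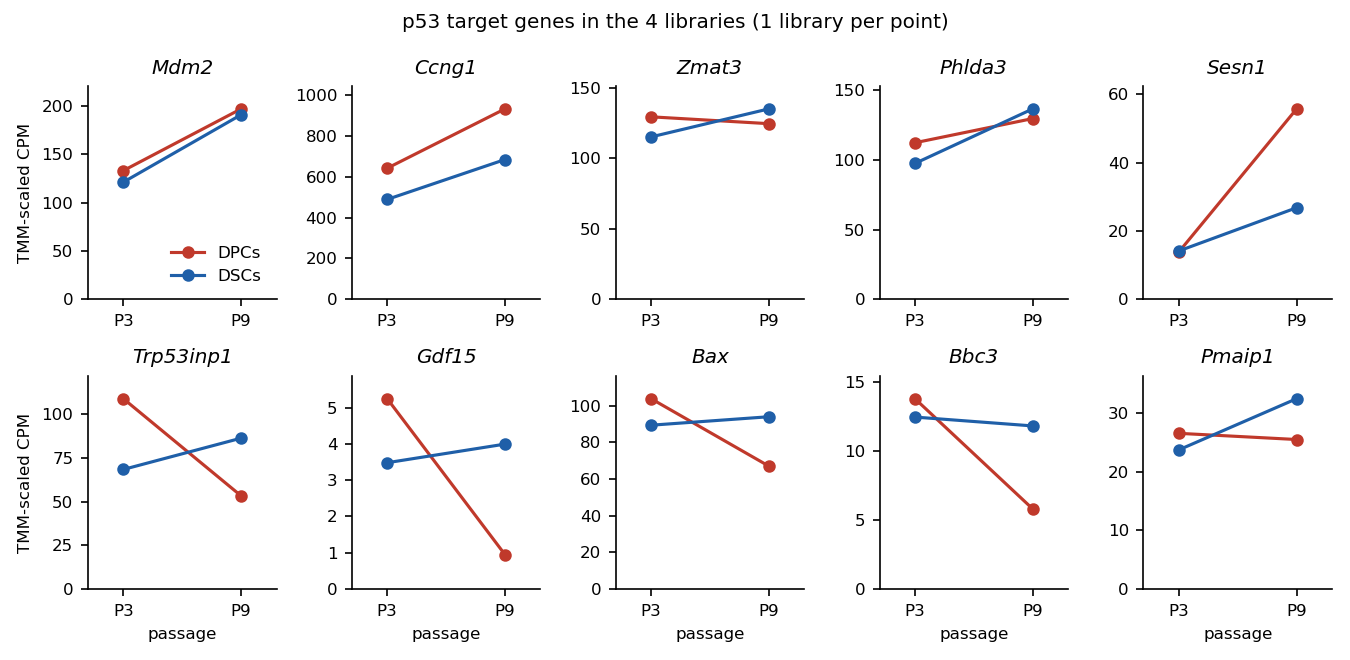
Level of each p53 target in TMM-scaled CPM in DPCs and DSCs at passage 3 (P3) and passage 9 (P9), with 1 point for each library. Each gene has its own panel and its own linear axis, so heights cannot be compared between panels. Ccng1 has the highest levels, 489 to 933 CPM. The point of high-passage DPCs stands below the other 3 for Gdf15 (0.947 CPM) and Bbc3 (5.80 CPM) and above them for Sesn1 (55.7 CPM).

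In DPCs, the passage comparison asks how expansion from passage 3 to passage 9 altered these transcripts. Sesn1 rose 4.02-fold, Gdf15 fell 5.30-fold, Bbc3 fell 2.36-fold and Trp53inp1 fell 2.04-fold, while Mdm2 and Ccng1 were 1.48-fold and 1.45-fold higher. The words rose and fell are kept for changes of at least 2-fold between the 2 libraries. At least 4-fold changes, the size the study used as its threshold, were seen in 2 of the 10 genes, Sesn1 and Gdf15, against 9.94% of the 16734 genes tested (5.58% upward and 4.36% downward). Sesn1 lay at the edge of this threshold, with a log2 change of 1.99 under scaling by total counts and 1.85 with the deposited FPKM and a pseudocount of 0.1. At least 2-fold changes were seen in 1 gene upward and 3 downward, against 16.1% and 15% of all genes tested (31.1% in either direction). The 2-fold call of Bbc3 was lost with the deposited FPKM, at -0.93 with a pseudocount of 0.1 and -0.80 with 1. That of Trp53inp1 was lost with a pseudocount of 1, at -0.94. The 95% counting interval excluded 0 for 4 genes that were higher and 4 that were lower, and the share of all genes tested was not computed. These intervals cover counting error only and compare 2 libraries, not 2 conditions. In bulk RNA, fewer cells that express a gene and less RNA per cell cannot be told apart. The median log2 change of the 10 genes was -0.06, beside 0.03 for all genes tested.

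In DSCs none of the 10 genes changed 2-fold, against 14.8% of all genes tested at 2-fold and 3.82% at 4-fold. The change was larger in size than in DPCs for Mdm2, Pmaip1, Zmat3 and Phlda3, and smaller for the others. A higher level at passage 9 was found for 9 of the 10 genes (8 with the deposited FPKM, where Bax turned), against 50.2% of all genes tested. In DPCs the same was true of 4 of the 10 genes, against 51.3%. The counting interval in DSCs excluded 0 for 8 of the 9 genes (7 with halved counts), and the share of all genes tested was not computed. The median log2 change in DSCs was 0.39, beside 0.00 for all genes tested. Sesn1 was the member that differed most, at 1.89-fold higher.

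The 2 members of the feedback loop between MDM2 and p53 were higher at passage 9 in both cell types. Mdm2 (ENSMUSG00000020184, GRCm38 chromosome 10, 117688875 to 117710758, minus strand) encodes the ubiquitin ligase that degrades p53. Its level at passage 3 and 9 was 133 and 196.9 CPM in DPCs, and 121.1 and 190.9 CPM in DSCs. Both high-passage libraries lay above both low-passage libraries. The log2 change was 0.57 (interval 0.51 to 0.62) in DPCs and 0.66 (0.60 to 0.71) in DSCs. Ccng1 (ENSMUSG00000020326, chromosome 11, 40748552 to 40755311, minus strand), whose product recruits a phosphatase to MDM2, was at 642 and 933 CPM in DPCs and at 489 and 685 CPM in DSCs at passage 3 and 9. Again both libraries of passage 9 lay above both of passage 3, the log2 changes being 0.54 (0.52 to 0.56) in DPCs and 0.48 (0.46 to 0.51) in DSCs.

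Sesn1 (ENSMUSG00000038332, chromosome 10, 41809935 to 41908424, plus strand) encodes sestrin 1, a stress protein that restrains mTORC1 and acts in antioxidant defence. From passage 3 to passage 9, DPCs went from 509 to 2000 counts (13.8 to 55.7 CPM) and DSCs from 536 to 1221 counts (14.1 to 26.8 CPM). The low-passage libraries were alike and the high-passage library of each cell type was above them, with DPCs the higher. The log2 change was 2.01 (1.87 to 2.15) in DPCs and 0.92 (0.77 to 1.07) in DSCs.

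Of the 3 members that encode death effectors, Bbc3 fell and Bax was lower with passage in DPCs. Bbc3 (ENSMUSG00000002083, chromosome 7, 16308393 to 16318205, plus strand) encodes PUMA, a BH3-only protein that triggers the mitochondrial death pathway. It had 507 and 208 counts in low- and high-passage DPCs, and 472 and 538 counts in DSCs, or 13.8, 5.80, 12.4 and 11.8 CPM. High-passage DPCs stood alone below the other 3 libraries, with a log2 change of -1.24 (-1.49 to -1.01), while in DSCs it was -0.08 (-0.26 to 0.11). Bax (ENSMUSG00000003873, chromosome 7, 45461697 to 45466898, minus strand), which encodes the protein that permeabilizes the outer mitochondrial membrane, was at 103.8 and 67.0 CPM in DPCs and 89.3 and 94.0 CPM in DSCs. Here too high-passage DPCs were the lowest library, at -0.63 (-0.71 to -0.56). In DSCs the value was 0.07 (0.01 to 0.14), which became -0.012 with the deposited FPKM and had an interval that included 0 when counts were halved. The predicted gene Gm45808 shares 192 exonic bases with Bax and had 1 to 3 counts. Pmaip1 (ENSMUSG00000024521, chromosome 18, 66458604 to 66465550, plus strand), which encodes the BH3-only protein NOXA, was at 26.5 and 25.4 CPM in DPCs and 23.7 and 32.4 CPM in DSCs. Its log2 change was -0.06 (-0.19 to 0.07) in DPCs and 0.45 (0.33 to 0.57) in DSCs.

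Trp53inp1 (ENSMUSG00000028211, chromosome 4, 11156431 to 11174379, plus strand) encodes a nuclear stress protein that promotes p53 phosphorylation and autophagy. Its level went from 108.7 to 53.2 CPM with passage in DPCs and from 68.3 to 86.2 CPM in DSCs, so that low-passage DPCs were the highest and high-passage DPCs the lowest library. The log2 change was -1.03 (-1.11 to -0.95) in DPCs and 0.34 (0.26 to 0.41) in DSCs. Phlda3 (ENSMUSG00000041801, chromosome 1, 135766119 to 135769136, plus strand), whose product competes with AKT for membrane lipids, was at 112.4 and 129.8 CPM in DPCs and 97.6 and 136.8 CPM in DSCs. It was higher in both libraries of passage 9 than in both of passage 3, with log2 changes of 0.21 (0.15 to 0.27) and 0.49 (0.43 to 0.55). Zmat3 (ENSMUSG00000027663, chromosome 3, 32334792 to 32366014, minus strand) encodes a zinc finger protein that binds RNA. Its levels of 129.6, 124.7, 115.3 and 135.3 CPM in low- and high-passage DPCs and then DSCs were the closest together of the 10 genes, with log2 changes of -0.06 (-0.11 to 0.00) and 0.23 (0.17 to 0.29).

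Gdf15 (ENSMUSG00000038508, chromosome 8, 70629393 to 70632456, minus strand) had the fewest counts of the 10 genes. DPCs held 193 at passage 3 and 34 at passage 9 (5.24 and 0.947 CPM), and DSCs held 132 and 182 (3.48 and 3.99 CPM), so that high-passage DPCs lay far below the other 3 libraries. The log2 change was -2.41 (-3.04 to -1.94) in DPCs and 0.20 (-0.13 to 0.53) in DSCs. These were the widest intervals of the 10 genes.

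**Figure D2:**
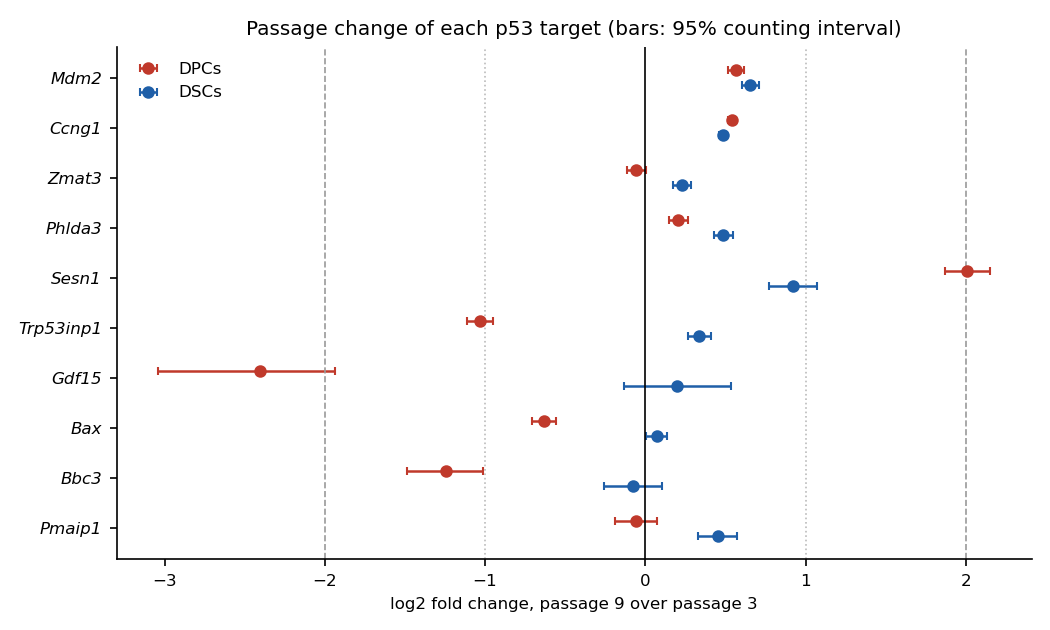
Log2 fold change from passage 3 to passage 9 of each p53 target in DPCs and in DSCs, with bars for the 95% counting interval between 2 libraries. Sesn1 in DPCs (2.01) and Gdf15 in DPCs (-2.41) lie beyond 4-fold, and every value in DSCs lies within 2-fold.

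The difference between the cell types in their passage change was then computed for each gene. In 8 of the 10 genes the change in DPCs was below that in DSCs, against 50.6% of all genes tested. It was below by more than 1 log2 unit in 3 genes (12.3% of all), namely Gdf15 at -2.60 (-3.33 to -2.03), Trp53inp1 at -1.37 (-1.47 to -1.26) and Bbc3 at -1.17 (-1.47 to -0.87), and above by more than 1 in 1 gene (11.8% of all), Sesn1 at 1.09 (0.88 to 1.29). Bax differed by -0.70 (-0.80 to -0.60), Pmaip1 by -0.51, Zmat3 by -0.29 and Phlda3 by -0.28. The smallest differences were those of Mdm2 (-0.09, -0.16 to -0.02) and Ccng1 (0.05, 0.02 to 0.09). The exact conditional interval of the 4 counts excluded 0 for all 10 genes, and for 9 of them when counts were halved, Mdm2 being the exception. The share of all genes tested for which it did so was not computed. Such intervals narrow as counts grow, so this number is not a trait of the 10 genes. The direction of change was opposite in the cell types for Bax, Pmaip1, Zmat3, Trp53inp1 and Gdf15 (5 of the 10 genes and 29.4% of all, Bax not with the deposited FPKM), upward in both for Mdm2, Ccng1, Sesn1 and Phlda3 (36% of all) and downward in both for Bbc3 (34.4% of all).

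**Figure D3:**
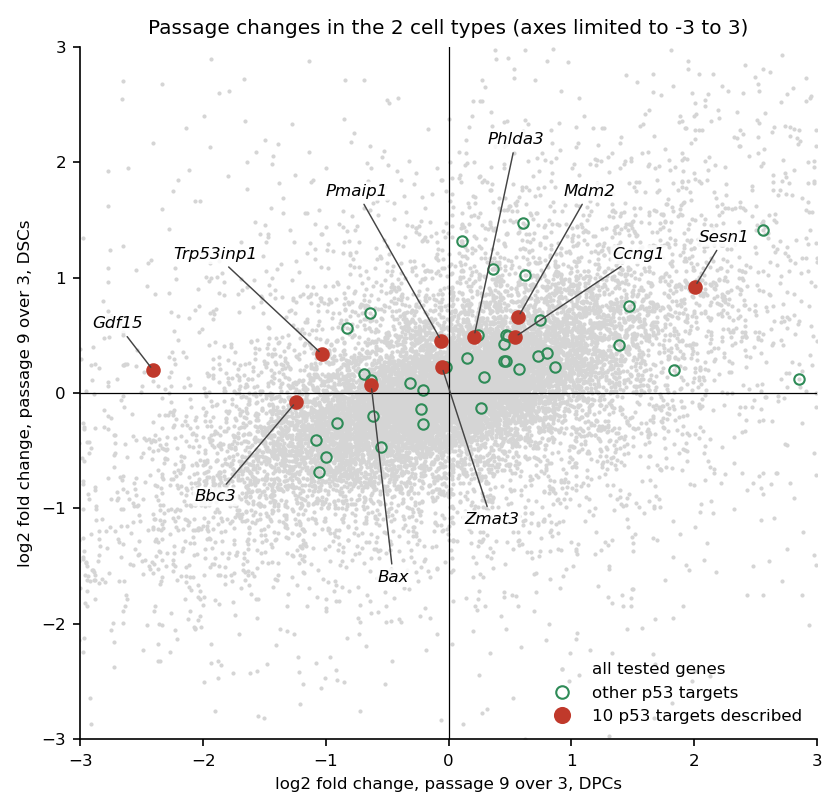
Log2 fold change with passage in DPCs (horizontal axis) and DSCs (vertical axis) for the 10 p53 targets, the other p53 targets and all 16734 genes tested, of which 823 lie outside the axes. Sesn1 lies at the upper right, Mdm2 and Ccng1 lie near 0.5 on both axes, and Gdf15, Trp53inp1, Bbc3 and Bax lie left of 0 and near or above 0 vertically.

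Between the cell types at passage 3, no member differed 2-fold (13.3% of all genes tested did, and 4.3% differed 4-fold). In 9 of the 10 genes the level was higher in DPCs, against 50.2% of all genes. Scaling by total counts gave all 10, and with the deposited FPKM Bbc3 was lower in DPCs (-0.39 with a pseudocount of 0.1, against 0.15 in the counts) and Sesn1 higher. The order by size began with Trp53inp1 at 0.67 (0.60 to 0.74), followed by Gdf15 at 0.58 (0.26 to 0.92) and Ccng1 at 0.39 (0.36 to 0.42). Sesn1 differed by -0.03 (-0.21 to 0.15). At passage 9, DPCs were higher in 3 of the 10 genes, against 49% of all genes. By total counts and FPKM they were higher in 4, where Phlda3 turned but stayed below the median of all genes. Gdf15 was 4.05-fold lower in DPCs, the 1 member past 4-fold (6.42% of all genes, 3.91% in this direction), though short of it at -1.92 under scaling by total counts. Bbc3 was lower by 1.02 on the log2 scale (interval of the difference -1.26 to -0.79) and Sesn1 was higher by 1.06 (0.95 to 1.16). These 3 were the members past 2-fold, against 20.1% of all genes (9.11% higher and 11% lower in DPCs). Bbc3 was short of 2-fold under scaling by total counts (-0.92), with a prior count of 10 (-0.99) and with the deposited FPKM and a pseudocount of 1 (-0.99). With that pseudocount Sesn1 was short of 2-fold too, at 0.98. Trp53inp1, higher in DPCs at passage 3, was lower at passage 9 with a difference of -0.70 (-0.78 to -0.62), and Bax was likewise lower at -0.49 (-0.56 to -0.42). Ccng1 was higher in DPCs at both passages, with 0.45 (0.42 to 0.47) at passage 9, and Mdm2 differed by 0.04 at passage 9 with an interval that included 0.

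The design allows a test of passage over the 4 libraries together, with cell type as a covariate and 1 residual degree of freedom that comes from the difference between the cell types. By edgeR's quasi-likelihood test with Benjamini-Hochberg adjustment no gene passed, member or other (0% of those tested), with a smallest adjusted p of 0.1 over all genes. At an unadjusted p under 0.05 it gave 2822 genes (16.9%), of which 2 were members. These were Sesn1 (log2 change 1.47, edgeR adjusted p = 0.209) and Mdm2 (0.61, edgeR adjusted p = 0.284). DESeq2 called 964 genes (5.76%) and of the 10 members Sesn1 (1.47, SE 0.41, adjusted p = 0.00954).

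Around the 10 targets, the regulators of p53 were examined. Trp53, which encodes p53, had 4644 and 3058 counts in DPCs and 4409 and 4005 counts in DSCs, with a log2 change of -0.57 and -0.40. Mdm4, an inhibitor of p53, was at 0.66 in DPCs and -0.06 in DSCs. Of 16 regulators 15 were tested, of which 2 rose 2-fold and 2 fell in DPCs, beside 16.1% and 15% of all genes tested. Those that rose were Hipk2, a kinase that phosphorylates p53 (1146 and 5454 counts, 2.29, interval 2.19 to 2.38), and Cdkn2a, the locus of ARF and p16 (1.13). Those that fell were the checkpoint kinase genes Chek1 (-1.57) and Chek2 (-1.18). In DSCs Cdkn2a alone passed 2-fold (942 and 3211 counts), and Hipk2 was at 0.81. The medians of the regulators were 0.11 in DPCs and -0.07 in DSCs.

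Other p53 targets numbered 39, of which 38 were tested. In DPCs 5 rose 2-fold and 2 fell, beside 16.1% and 15% of all genes tested. In DSCs 5 rose and none fell, beside 8.55% and 6.21%. The medians were 0.28 and 0.25. Cdkn1a, which encodes the arrest protein p21, was at -0.32 in DPCs and 0.09 in DSCs. In the arrest and repair list of 13 genes (medians -0.02 and 0.17), Ddb2 rose (1.39) and Sesn2 fell (-1.08) in DPCs, and Btg2 rose in DSCs (1.47). In the death list of 12 genes (medians 0.27 and 0.21), Perp, a membrane protein of desmosomes, rose from 9 to 75 counts in DPCs (2.86) and Trp53i11 rose too (1.47), while no gene of the list passed 2-fold in DSCs. In the list of other roles, with 13 of 14 genes tested (medians 0.45 and 0.56), Sulf2, a sulfatase that edits heparan sulfate, rose in DPCs from 2671 to 15420 counts (2.56) and likewise in DSCs from 2954 to 9482 (1.42). There Pltp rose (1.83) and Ckap2 fell (-1.05) in DPCs, and Slc19a2 (1.32), Dcxr (1.07) and Mgmt (1.02) rose in DSCs.

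The partners of Bax, Bbc3 and Pmaip1 in the BCL-2 family were set beside them, with 10 of 12 tested. In DPCs 3 fell and none rose (15% and 16.1% of all genes tested), namely Bok, a relative of Bax, from 826 to 52 counts (-3.91), Bcl2, which blocks death (-1.80), and Bak1, which acts beside Bax (-1.11). In DSCs 3 rose and none fell (8.55% and 6.21% of all genes tested), namely the survival gene Bcl2l2 (1.71) and the BH3-only genes Bcl2l11 (1.27) and Bmf (1.16). The medians were -0.53 and -0.11.

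Since Gdf15 is also a target of ATF4 and CHOP, the factors of the integrated stress response, 10 genes of that pathway were counted. In DPCs 5 fell and 2 rose, beside 15% and 16.1% of all genes tested, with a median of -1.03. In DSCs 2 fell and 1 rose, beside 6.21% and 8.55%, with a median of -0.49. Trib3, a pseudokinase, fell in DPCs from 2294 to 56 counts (-5.27) and in DSCs from 3130 to 1249 (-1.59), and Asns, the asparagine synthetase gene, was at -2.37 and -0.93. Proliferation markers moved with passage as well. All 10 fell in DPCs and 8 of 10 in DSCs, with a summed level of 793 CPM that became 176.5 in DPCs and of 666 CPM that became 268.7 in DSCs. Mki67 was at -1.84 and -1.28, Top2a at -2.15 and -1.28, and Ccnb1, Ccna2 and Bub1 at -3.45, -3.24 and -3.02 in DPCs. The part of either group of genes in the values of the 10 targets was not tested.

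**Figure D4:**
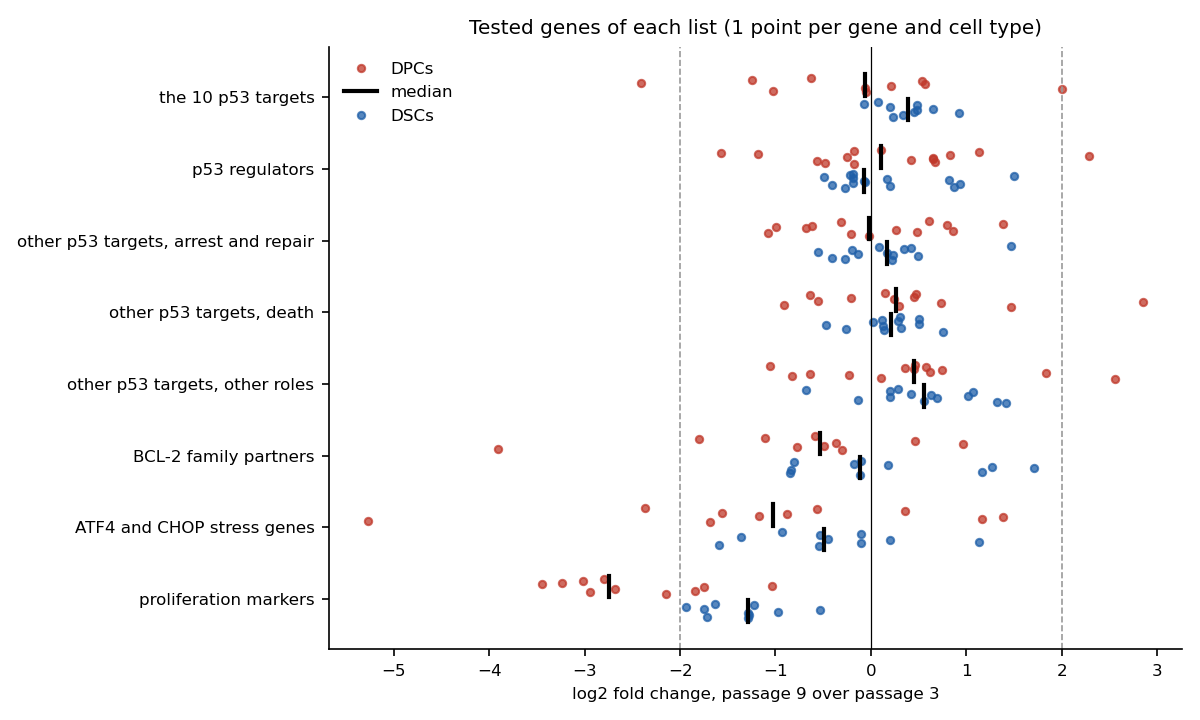
Log2 fold change with passage of each tested gene in the lists of p53 targets, regulators and related genes, in DPCs and DSCs, with the median of each list. The medians of the proliferation markers are -2.74 (DPCs) and -1.29 (DSCs). Those of the other p53 targets are -0.02 and 0.17 (arrest and repair), 0.27 and 0.21 (death) and 0.45 and 0.56 (other roles).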

How the data were processed

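Total RNA from 4 cultures (DPCs and DSCs at passage 3 and 9) was sequenced as paired-end Illumina libraries. The library kit is NEBNext with poly-T selection in the study's methods and another kit in the labels. The authors deposited raw counts per gene, whole numbers that were not normalized. The FPKM values deposited for each library were scaled by the authors to the length of the transcript and the depth. The submitters' processing notes list Bowtie 0.12.2 and the builds mm8 and mm9, while the deposited positions are those of GRCm38. The role of the aligner, the counting program and the use of strand are not given in the sources used here. No value column belonged to another series (0 columns).

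Counts were scaled by TMM in edgeR 4.0.16 (R 4.3.3, limma 3.58.1), and the 16734 genes whose raw counts averaged 10 or more were tested, which included all 10 members. Fold changes are log2 CPM differences (prior count 2), written as passage 9 over passage 3 or DPCs over DSCs. Intervals (95%) are exact Clopper-Pearson intervals of a library's share of the counts of 2 libraries, and for differences between cell types exact conditional intervals of an odds ratio. Both cover counting error only. Even counts were in excess (in low-passage DPCs 1339 genes had 2 counts, 583 had 3, 754 had 4 and 451 had 5), as where both mates of a pair are counted, so intervals were repeated with halved counts. A count of 0 allows 3 counts, or 0.0658 to 0.0836 CPM. The additive fit used edgeR's quasi-likelihood test, with DESeq2 1.42.0 as the alternative.

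The members and gene lists were chosen with earlier results of these data known. Named were all members, the genes of each list past 4-fold with passage in a cell type (at most 3), Trp53, Cdkn1a, Mdm4, Mki67, Top2a and the nearest profiles to the member with the widest range. Other genes past 2-fold, and markers near 0, were named after their values were seen. Alternatives were other scalings, prior counts, minimum counts, the deposited FPKM and DESeq2.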

Additional observations from a re-analysis of the deposited data

Results flagged for a closer look

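Trp53inp1 and Bax went in opposite directions with passage in the cell types, lower in DPCs and higher in DSCs. The change in DPCs minus that in DSCs was -1.37 on the log2 scale for Trp53inp1 and -0.70 for Bax. Each group was 1 library, so the difference was not tested against the spread between cultures. For Bax, the value in DSCs was 0.07, and its sign turned with the deposited FPKM.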

How the results depend on the processing

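No paired analysis was possible because each group was 1 library, so that no 2 groups shared more than 1 replicate number. The additive fit has cell type, not a replicate, as its covariate. The number of members changed 4-fold with passage in DPCs was 2, and became 1 with scaling by total counts, a prior count of 10, no minimum count or FPKM with a pseudocount of 0.1, and 0 with FPKM and a pseudocount of 1. The number changed 2-fold was 4, and became 3 with a minimum mean count of 100 or FPKM with a pseudocount of 0.1, and 2 with FPKM and a pseudocount of 1. Between the cell types at passage 9, the 1 member past 4-fold (Gdf15) became 0 with total counts, a prior count of 10, a minimum mean count of 100 and FPKM with either pseudocount, and the 3 past 2-fold became 2 with total counts, a prior count of 10 or a minimum mean count of 100, and 1 with FPKM and a pseudocount of 1. A pseudocount of 1 FPKM compresses changes of genes at Gdf15's level by its construction. In the additive fit 0 members passed by edgeR and 1 by DESeq2, and 0 genes against 964 in all. Of 40 member changes, 38 kept their sign with total counts, 36 with FPKM at each pseudocount and all 40 with DESeq2 size factors, upper-quartile scaling and both other prior counts. Bax in DSCs turned to -0.012 with FPKM at either pseudocount. Phlda3 at passage 9 in DPCs over DSCs, -0.08 in the counts, turned to 0.024 with total counts, 0.032 with FPKM and a pseudocount of 0.1 and 0.031 with 1. Apart from that pseudocount's construction, the cause was not tested. The median of all genes moved most, by 0.1001, in DPCs over DSCs at passage 9 with FPKM and a pseudocount of 0.1. Relative to it Phlda3 stayed lower, at -0.054, and with total counts at -0.058. The low counts of Gdf15 limit its precision.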

Other observations

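The member with the widest range, Gdf15, was set beside the genes whose centred log2 CPM over the 4 libraries lay nearest to its own, by root mean square distance. Among 12191 tested genes with a mean count of at least 100 these were Orai3, a calcium channel gene (distance 0.12), Cipc, a gene of the circadian clock (0.13) and Atxn1, the ataxin 1 gene (0.13). Orai3 had 1072 and 217 counts in DPCs and 913 and 1042 in DSCs at passage 3 and 9. Among 38 other p53 targets the nearest were Sesn2 (0.53), Dram1 (0.67) and Plk2 (0.67).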
